A study of Rattus norvegicus with 6 samples.

Results

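Bone morphogenetic protein (BMP) signaling and its Id target genes were examined in vascular smooth muscle (VSM) cells of young and old rats. Of 10 genes chosen by symbol, 9 had a row in the count table of 14475 genes: the secreted BMP antagonist Grem1, the receptors Bmpr1a and Bmpr2, the inhibitory Smads Smad6 and Smad7, and Id1, Id2, Id3 and Id4. Bmp4 was not analysed here. The cells were grown from soleus feed arteries (SFA), which carry blood to the soleus muscle, of male Fisher 344 (Fischer) rats aged 4 months (young, 3 libraries) or 24 months (old, 3 libraries). Neither group carried a transgene or received a treatment, and the libraries of polyadenylated RNA came from cultured cells of 3 rats per group, so levels describe cells kept in serum-containing medium and not the artery wall. The comparison asks which genes of this pathway differ with age.

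BMPs are secreted ligands that bring together type 1 and type 2 receptors, after which the receptor Smads 1, 5 and 9 are phosphorylated, join Smad4 and enter the nucleus. Extracellular antagonists such as gremlin 1 bind the ligands and keep them from the receptors. Among the genes that this branch switches on are the Id genes, which encode helix-loop-helix proteins that bind E proteins and prevent them from binding DNA, and the inhibitory Smads, which feed back on the receptors. In VSM cells the pathway is known for its part in growth and differentiation, and inherited loss of BMPR2 function causes pulmonary arterial hypertension.

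Total counts on genes ranged from 44235674 to 59700887 per library, and the lowest count of any of the 9 genes in a library was 306. The unit of all levels is CPM (a gene's count relative to the TMM-normalized library size), which is not corrected for gene length, so values compare libraries and not genes. Smooth muscle markers were present in all 6 cultures, with Acta2 at 4972 to 10381 CPM in young and 1126 to 2201 CPM in old. The summed level of 8 smooth muscle markers was 11207 to 20995 CPM in young and 3448 to 5562 CPM in old. Of the 8, 7 were lower in old at an unadjusted p under 0.05 in edgeR, against 11.5% of all genes. The summed level of 8 fibroblast markers was 262 to 730.1 CPM in young and 1175 to 2153 CPM in old. Of these 8, 4 were higher at an unadjusted p under 0.05 in edgeR, against 11.2% of all genes. Col14a1, one of them, had 69.7 to 229.9 CPM in young and 596 to 1121 CPM in old. The 4 endothelial markers found of 8 summed to 4.01 to 13.6 CPM in young and 12.7 to 18.2 CPM in old. Tek had 2.64 to 12.5 CPM in young and 11.3 to 16.8 CPM in old, and Pecam1, Kdr and Vwf each stayed under 1 CPM. The 2 macrophage markers found of 7, among them Csf1r, summed to at most 2.91 CPM in a library. The 3 Schwann cell markers found of 6 summed to 12.5 to 75.2 CPM in young and 54.3 to 85.4 CPM in old, of which S100b had 10.5 to 72.6 and 50.8 to 81.2 CPM. The 8 skeletal myoblast markers were not analysed here. In bulk RNA, fewer cells of a type and less RNA per cell cannot be told apart.

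Of the 4 Id genes, 3 (Id1, Id3 and Id4) were lower in each old library than in any young library, at 0.533 to 0.643 times the young level, and so was Smad7, at 0.662 times. Bmpr1a was higher in each old library than in any young library. The groups overlapped for Grem1, Bmpr2, Smad6 and Id2. Thus 4 of the 9 genes had old libraries below all young libraries, while 14.7% of all genes did, and 1 of the 9 had old libraries above, while 14.5% of all genes did. In edgeR's quasi-likelihood test the same 4 genes were lower at an unadjusted p under 0.05 (11.5% of all genes) and Bmpr1a was higher (11.2% of all genes), 5 of 9 in either direction against 22.6%. A differentially expressed gene (DEG) needed an adjusted p under 0.05 together with a log2 fold change of 1 or more in size. None of the 9 was a DEG in edgeR, where 0.00691% of all genes passed, nor did any in limma-voom. In the DESeq2 Wald test 0 of the 9 passed both, where 5.68% of genes with an adjusted p passed. On adjusted p alone, DESeq2 called Id1, Id3, Id4 and Smad7 as lower, compared with 6.75% of genes, and 0 as higher, compared with 5.71%. The median log2 fold change, old against young, was -0.59 over the 9 genes and 0.02 over all genes. The median of the 9 genes was -0.26 without young replicate 2, in which Grem1 was highest.

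**Figure D1:**
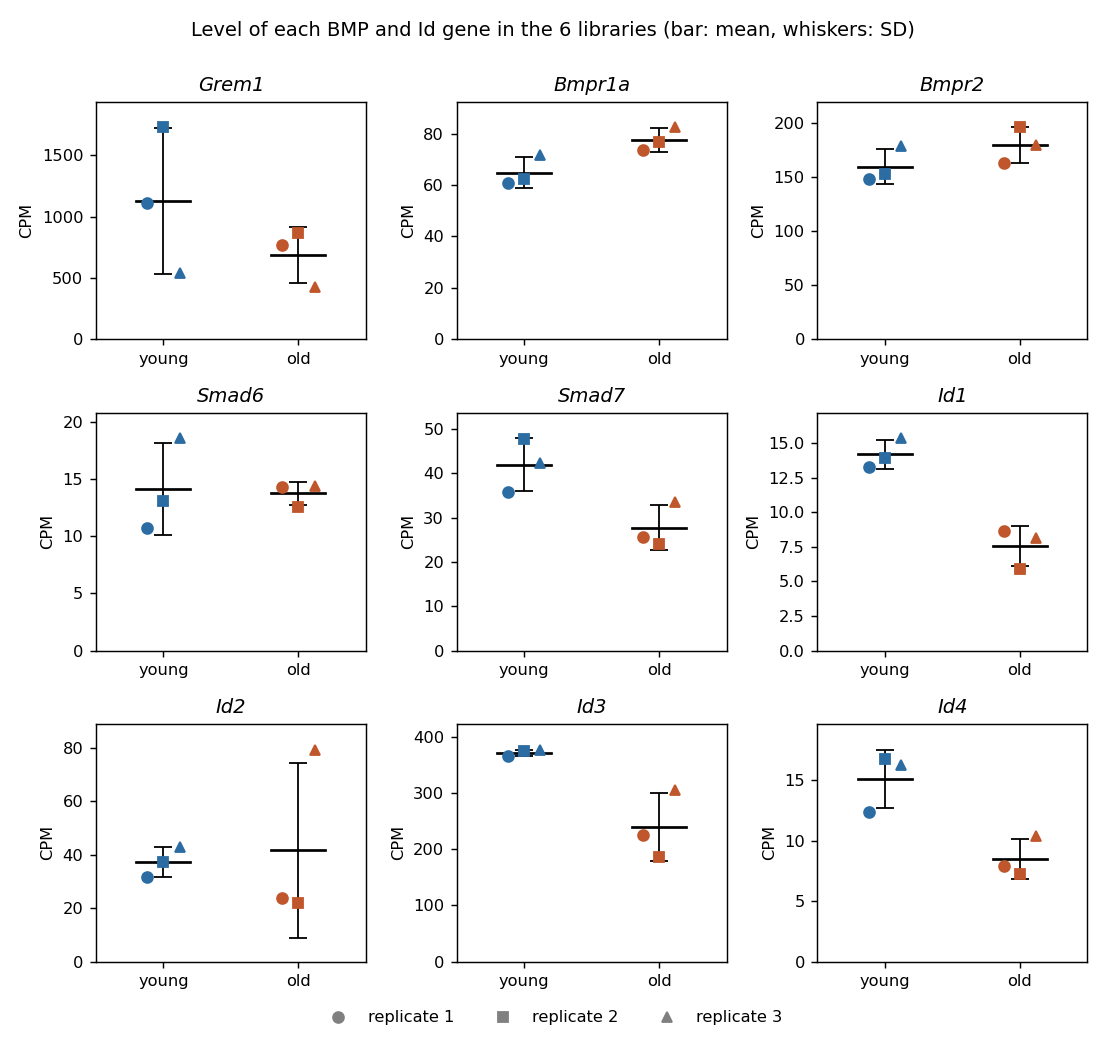
Level in CPM (vertical axes, starting at 0) of the 9 genes in the 3 young and 3 old libraries, 1 symbol per replicate, with the group mean (bar) and SD (whiskers). Id1, Id3, Id4 and Smad7 lie lower in old without overlap, Bmpr1a lies higher, and Id2 is split by old replicate 3 at 79.4 CPM.

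Id1 (ENSRNOG00000021750) encodes an inhibitor of E proteins and is the member of its family most often used as a readout of BMP signaling. It had 13.3, 13.9 and 15.3 CPM in young replicates 1, 2 and 3 and 8.62, 5.89 and 8.13 CPM in old replicates 1, 2 and 3. All old libraries lay below all young libraries, with old replicate 2 the lowest. The young mean of 14.2 ± 1.05 CPM (SD, n = 3) compared with an old mean of 7.55 ± 1.46 CPM (SD, n = 3), 0.533 times the young level in the fit. This is a log2 fold change of -0.91 (standard error 0.18, 95% interval -1.33 to -0.49, adjusted p = 0.0741 from edgeR). DESeq2 gave an adjusted p of 0.000314 and kept it under 0.05 with each library left out in turn, up to 0.0106. In edgeR, Id1 became a DEG without old replicate 1, where the log2 fold change was -1.02 at an adjusted p of 0.0371, and had adjusted p of up to 0.250 with other libraries left out.

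Id3 (ENSRNOG00000026124), another E protein inhibitor, was the steadiest of the 9 genes among young cultures. Its levels were 366, 374 and 376 CPM in young replicates 1, 2 and 3, a coefficient of variation of 1.48%. The old replicates 1, 2 and 3 had 226, 186 and 306 CPM. These old values were all lower than the young ones, and they were spread far more, with a coefficient of variation of 25.4%. Id3 thus had a log2 fold change of -0.64 (95% interval -1.09 to -0.19, standard error 0.19, adjusted p = 0.136 from edgeR). The adjusted p from DESeq2 was 0.0263. That call held without old replicate 3, where it was 7.46e-08, and was lost without any other library, with adjusted p of up to 0.135.

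Id4 (ENSRNOG00000016099), whose product can counteract the other Id proteins in some cells, had 12.4, 16.7 and 16.2 CPM in young replicates 1, 2 and 3. It had 7.92, 7.23 and 10.3 CPM in old replicates 1, 2 and 3. The groups did not overlap, and the highest old value came from replicate 3, as for Id3. For Id4 the log2 fold change was -0.83 (standard error 0.19, 95% interval -1.30 to -0.37, adjusted p = 0.0982 from edgeR and 0.00415 from DESeq2). With each library left out, DESeq2 kept an adjusted p under 0.05 in 4 of 6 cases and lost it without young replicate 2 (0.0715) and without young replicate 3 (0.0513).

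Id2 (ENSRNOG00000007237), which also binds E proteins, did not follow the other Id genes in 1 culture. It had 31.5, 37.4 and 43.0 CPM in the young libraries. Old replicates 1 and 2 had 23.7 and 21.8 CPM, below each young library, and old replicate 3 had 79.4 CPM, above each of them. The old mean of 41.6 ± 32.7 CPM (SD, n = 3) thus stands for no single culture, and the coefficient of variation among old libraries, 78.6%, was exceeded by 3.00% of genes with an average above 1 CPM. Over all 6 libraries the log2 fold change was 0.16, and its 95% interval of -1.07 to 1.39 is wide on both sides of 0 (adjusted p = 0.871 from edgeR). Without old replicate 3 it was -0.71, with an adjusted p of 0.154 from edgeR and 0.00595 from DESeq2.

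**Figure D2:**
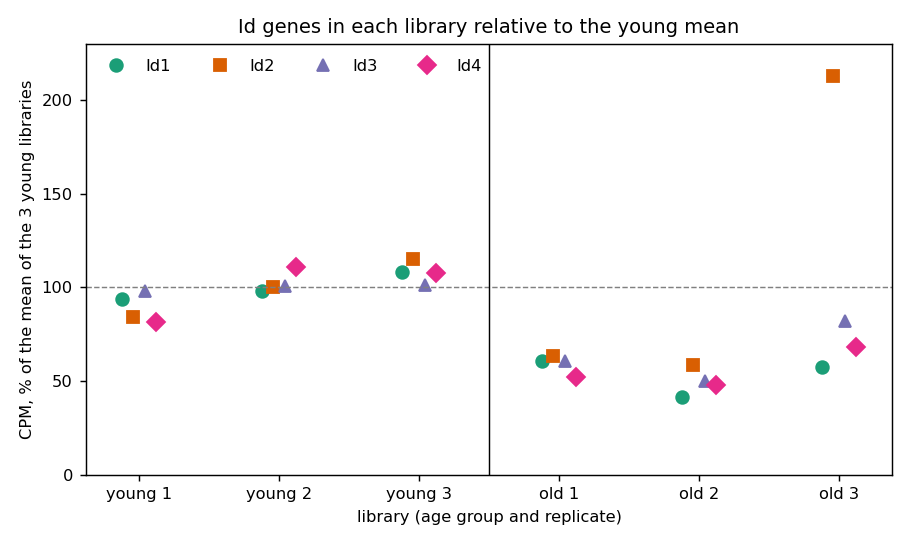
CPM of Id1, Id2, Id3 and Id4 in each library (horizontal axis) as a percentage of the mean of the 3 young libraries (vertical axis, dashed line at 100). The 4 genes lie at 41.5% to 63.5% in old replicates 1 and 2, and in old replicate 3 Id2 stands at 212.8% while the other Id genes lie at 57.4% to 82.2%.

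Read by culture, the Id genes were lowest together in old replicate 2, at 41.5%, 58.5%, 50.1% and 47.9% of the young mean for Id1, Id2, Id3 and Id4. Old replicate 1 had 60.8%, 63.5%, 60.7% and 52.4% for the same genes. Old replicate 3 was at 57.4%, 82.2% and 68.4% for Id1, Id3 and Id4. Among old libraries, the summed fibroblast markers were highest in replicate 2 at 2153 CPM, close to the 2035 CPM of replicate 3. The smooth muscle markers were lowest in replicate 2 at 3448 CPM, close to the 3532 CPM of replicate 3. Single markers were split. Pdgfra, Dcn and Lum were highest in old replicate 2, and Col14a1, Scara5, Pi16, Dpt and Cd34 were not. Acta2, Tagln, Lmod1 and Myocd were lowest in old replicate 2, and Myh11, Cnn1, Smtn and Des were not. Proliferation genes, which Id proteins are known to favor, summed to 610.1, 404.5 and 611 CPM in young replicates 1, 2 and 3 and to 441, 156 and 133.5 CPM in old replicates 1, 2 and 3. Of the 7 proliferation genes, 7 had a negative and 0 a positive log2 fold change. At an unadjusted p under 0.05 in edgeR 3 were lower, against 11.5% of all genes. The part of these marker and proliferation differences in the Id values was not tested.

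The promoters of the Id genes are shown because these genes are the transcriptional targets on which the comparison turns. The 250 bases before the annotated start of each gene, from RefSeq on the rat build GRCr8, were searched on both strands for 6 motifs. These were GGCGCC, a GC-rich element bound by Smads of the BMP branch, CAGAC, the core of the Smad box, GTCTAGAC, its palindromic form, CAGCTG, an E box, CCAAT and TATAAA. None of these motifs contains another. Of the 9 genes, 8 matched the table by symbol, all but Smad6. The windows of Id1, Id2, Id3 and Id4 are chr3:161671314-161671563 (plus strand), chr6:47470996-47471245 (minus strand), chr5:153656041-153656290 (plus strand) and chr17:16598294-16598543 (minus strand). They are printed 5′ to 3′ on the strand of the gene, in lower case with each match in capitals, and a CCAAT match on the other strand reads ATTGG.
Id1: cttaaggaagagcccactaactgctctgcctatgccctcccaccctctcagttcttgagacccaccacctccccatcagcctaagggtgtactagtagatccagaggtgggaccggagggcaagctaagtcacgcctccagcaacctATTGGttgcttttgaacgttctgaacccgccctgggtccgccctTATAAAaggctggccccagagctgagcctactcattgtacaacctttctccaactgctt
Id2: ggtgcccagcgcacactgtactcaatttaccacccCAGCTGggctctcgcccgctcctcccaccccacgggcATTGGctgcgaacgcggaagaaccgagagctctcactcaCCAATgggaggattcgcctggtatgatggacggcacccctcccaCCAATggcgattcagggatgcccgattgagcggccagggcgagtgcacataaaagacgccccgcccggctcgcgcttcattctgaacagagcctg
Id3: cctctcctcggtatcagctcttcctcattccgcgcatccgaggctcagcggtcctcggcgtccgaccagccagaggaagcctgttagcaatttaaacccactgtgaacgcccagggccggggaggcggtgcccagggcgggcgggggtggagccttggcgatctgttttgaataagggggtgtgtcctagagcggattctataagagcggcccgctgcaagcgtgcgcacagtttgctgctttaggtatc
Id4: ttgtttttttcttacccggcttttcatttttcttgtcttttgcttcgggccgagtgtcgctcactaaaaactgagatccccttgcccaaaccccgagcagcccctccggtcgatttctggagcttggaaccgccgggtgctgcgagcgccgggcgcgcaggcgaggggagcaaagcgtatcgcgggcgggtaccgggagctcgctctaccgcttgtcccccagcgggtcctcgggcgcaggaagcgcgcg
GGCGCC had no match in these 4 windows, nor had CAGAC or GTCTAGAC. In all 33469 windows of this length, 8.70% held GGCGCC, 42.9% held CAGAC and 0.173% held GTCTAGAC. The Id1 window held 1 CCAAT match, on the minus strand at -103 to -99 from the start, and 1 TATAAA match at -59 to -54. The Id2 window held 3 CCAAT matches and 1 CAGCTG, which 34.0% and 11.97% of all windows held at least once, and TATAAA was found in 12.9% of all windows. Id3 and Id4 held none of the 6 motifs. Among the other genes, GGCGCC occurred in the window of Smad7 at 2 positions and in that of Grem1 at 1. Those windows were 78.0% and 72.0% G and C, against 54.8% to 62.8% for the Id genes and a median of 51.2% over all windows. The part of this base content in the GGCGCC matches was not tested. These are matches of letters in a short window, and regulatory elements farther away were not searched.

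Smad7 (ENSRNOG00000018359) encodes an inhibitory Smad that blocks receptors of both the BMP and the TGF-β branch and is itself induced by them. Its levels were 35.8, 47.7 and 42.3 CPM in young replicates 1, 2 and 3 and 25.7, 24.1 and 33.6 CPM in old replicates 1, 2 and 3. The highest old library, replicate 3, lay just under the lowest young library. Its log2 fold change was -0.59 (standard error 0.17, 95% interval -1.0 to -0.19, adjusted p = 0.129 from edgeR). DESeq2 gave an adjusted p of 0.0308, which held without young replicate 1 (0.0207) and without old replicate 3 (0.00115) and was lost without each of the other 4 libraries, with adjusted p of up to 0.196.

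Smad6 (ENSRNOG00000009173), the inhibitory Smad that acts mainly on the BMP branch, had 10.7, 13.1 and 18.6 CPM in the young libraries and 14.4, 12.6 and 14.4 CPM in the old libraries. The old values sat inside the young range. Its log2 fold change was -0.04 (95% interval -0.55 to 0.47, adjusted p = 0.924 from edgeR), and without young replicate 3 it was 0.21. The value seen for Smad7 lies just outside this interval, and the difference between Smad6 and Smad7 was not tested.

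Both receptors had positive log2 fold changes, and neither passed the adjusted test in edgeR. Bmpr1a (ENSRNOG00000052469), a type 1 BMP receptor, had 60.7, 62.2 and 71.6 CPM in the young libraries and 73.5, 76.6 and 82.4 CPM in the old libraries. The groups did not overlap, but young replicate 3 and old replicate 1 were close. For Bmpr1a the log2 fold change was 0.26 (standard error 0.10, 95% interval 0.01 to 0.50, adjusted p = 0.207 from edgeR and 0.182 from DESeq2). Without young replicate 3, DESeq2 gave an adjusted p of 0.0477. Bmpr2 (ENSRNOG00000022196), the type 2 receptor that phosphorylates the type 1 receptor, had 149, 153 and 179 CPM in young and 163, 196 and 179.6 CPM in old. Old replicate 1 lay within the young range, so the groups overlapped. The log2 fold change of Bmpr2 was 0.17 (95% interval -0.12 to 0.45, adjusted p = 0.425 from edgeR). The values from -0.49 to -1.33 that the interval of Id1 covers lie outside it, and the difference between Bmpr2 and Id1 was not tested.

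Grem1 (ENSRNOG00000026053), an antagonist of BMP2, BMP4 and BMP7, varied widely among cultures of the same age. It had 1108, 1728 and 544 CPM in young replicates 1, 2 and 3 and 773, 866 and 430.0 CPM in old replicates 1, 2 and 3. In each group replicate 3 was the lowest and replicate 2 the highest. Old replicates 1 and 2 lay within the young range and old replicate 3 below it. The coefficient of variation was 52.6% in young and 33.3% in old. The log2 fold change of Grem1 was -0.71 (standard error 0.45, 95% interval -1.80 to 0.39, adjusted p = 0.380 from edgeR), and it was -0.26 without young replicate 2. With replicate number as a block it was -0.62 (adjusted p = 0.161 from edgeR).

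**Figure D3:**
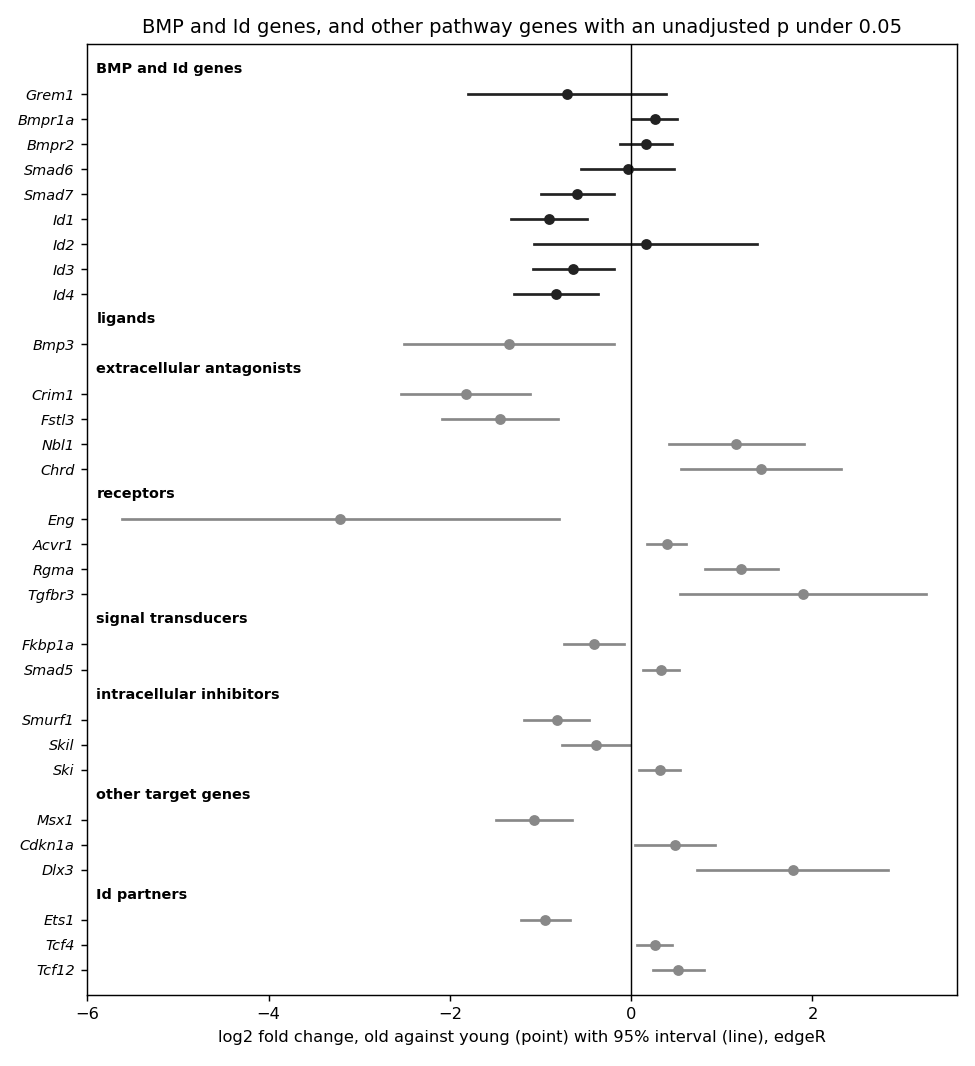
Log2 fold change, old against young (horizontal axis, points), with its 95% interval (lines) from edgeR, for the 9 genes (black) and the 20 other pathway genes with an unadjusted p under 0.05 (grey), grouped by role. The intervals of Id1, Id3, Id4 and Smad7 lie below 0 and that of Id2 is centered near 0 and wide.

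The rest of the pathway was described with 77 further genes listed by role, of which 61 had a row. In edgeR, 9 of the 61 were lower and 11 higher at an unadjusted p under 0.05, against 11.5% and 11.2% of all genes, and 0 had an adjusted p under 0.05. The counts by role that follow rest on few genes each and are to be read against the same shares. The median log2 fold change of the 61 genes was 0.06, with 29 negative and 32 positive values. DESeq2 called 8 as lower and 9 as higher at an adjusted p under 0.05, against 6.75% and 5.71% of the genes given an adjusted p. Of these, 5 in each direction passed the fold threshold as well, 10 of 61 against 5.68% of those genes. They were Bmp3, Crim1, Fstl3, Eng and Msx1 as lower and Chrd, Nbl1, Rgma, Tgfbr3 and Dlx3 as higher. Called on adjusted p alone were Fstl1, Smurf1 and Ets1 as lower and Acvr1, Smad5, Tcf4 and Tcf12 as higher. The adjusted p from DESeq2 was 1.16e-09 for Ets1, 2.5e-07 for Rgma and 3.92e-07 for Crim1.

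Among the other ligands, 6 of 12 had a row, 1 was lower and 0 were higher at an unadjusted p under 0.05. Bmp3, a ligand that opposes the osteogenic BMPs, had 13.2, 14.6 and 38.1 CPM in young and 5.83, 8.16 and 11.9 CPM in old. Its log2 fold change was -1.35 (adjusted p = 0.180 from edgeR), and -0.69 with the library left out that moved it most. Bmp6, a ligand of the osteogenic group, had 27.2, 15.3 and 5.70 CPM in young and 11.6, 52.5 and 25.6 CPM in old, with overlapping groups. Bmp2 was at 2.53 CPM or less in each library.

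Of 13 other extracellular antagonists with a row, 2 were lower and 2 higher at an unadjusted p under 0.05. Crim1, a membrane-bound protein that binds BMPs, had 215, 304 and 459 CPM in young and 110.2, 86.7 and 78.7 CPM in old (log2 fold change -1.83, standard error 0.29, adjusted p = 0.0600 from edgeR). Fstl3, which binds activins and related ligands, had 33.1, 68.2 and 53.3 CPM in young and 16.5, 20.9 and 19.2 CPM in old. Chrd, which encodes chordin, was higher, at 14.6, 11.3 and 7.53 CPM in young and 20.9, 24.2 and 45.3 CPM in old. Nbl1, an antagonist of the DAN family to which gremlin also belongs, was higher too, at 307, 239 and 185 CPM in young and 404, 444 and 783 CPM in old. For each of these 4 genes the groups did not overlap, with log2 fold changes of -1.45 for Fstl3, 1.43 for Chrd and 1.16 for Nbl1 and adjusted p of 0.0651, 0.113 and 0.119 from edgeR. Fstl1, a follistatin-like secreted protein, lay between 2829 and 3234 CPM in young and between 2514 and 2536 CPM in old, a log2 fold change of -0.26 (adjusted p = 0.319 from edgeR and 0.0468 from DESeq2).

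Of 11 other receptors and co-receptors, 1 was lower and 3 were higher at an unadjusted p under 0.05. Rgma, a co-receptor for BMPs, was even in young cultures at 15.5, 14.8 and 14.9 CPM and had 30.4, 44.4 and 30.3 CPM in old (log2 fold change 1.22, standard error 0.17, adjusted p = 0.0531 from edgeR). Acvr1, a type 1 BMP receptor, had 66.1, 60.9 and 70.1 CPM in young and 85.0, 84.2 and 89.6 CPM in old (log2 fold change 0.39, standard error 0.09, adjusted p = 0.0968 from edgeR). Tgfbr3, the co-receptor betaglycan, had 50.4, 34.2 and 14.5 CPM in young and 88.6, 205 and 74.7 CPM in old. Eng, the co-receptor endoglin, had 132, 349 and 87.2 CPM in young and 47.9, 8.64 and 4.89 CPM in old. Its log2 fold change of -3.21 had a standard error of 1.00 (adjusted p = 0.151 from edgeR), and the value lay between -4.81 and -2.42 with each library left out. Endoglin is known as an endothelial protein. The 4 endothelial markers found summed to 4.01 to 13.6 CPM in young and 12.7 to 18.2 CPM in old, with Tek at 2.64 to 16.8 CPM and Pecam1, Kdr and Vwf each under 1 CPM, and their part in the values of Eng was not tested. Neo1, a receptor for repulsive guidance molecules such as Rgma, had overlapping groups (log2 fold change -0.10, adjusted p = 0.738 from edgeR).

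Among the transducers, Smad5, a receptor Smad of the BMP branch, had 49.8, 48.2 and 52.0 CPM in young and 59.0, 64.9 and 64.6 CPM in old, a log2 fold change of 0.33 (adjusted p = 0.112 from edgeR). Smad1, which shares that role, had 49.3, 45.6 and 47.8 CPM in young and 51.2, 45.9 and 39.8 CPM in old, with a 95% interval of -0.33 to 0.21. Fkbp1a, whose product FKBP12 holds type 1 receptors inactive, had 408, 448 and 521 CPM in young and 381, 314 and 343 CPM in old (log2 fold change -0.41, adjusted p = 0.167 from edgeR). Smurf1, a ubiquitin ligase that marks Smad1, Smad5 and their receptors for degradation, had 89.5, 111.6 and 132 CPM in young and 63.6, 60.3 and 64.5 CPM in old. The old libraries of Smurf1 were closely grouped and all below the young ones (log2 fold change -0.82, standard error 0.15, adjusted p = 0.0651 from edgeR). The corepressor gene Ski was higher at 0.31 and its relative Skil was lower at -0.39 on the log2 scale, with adjusted p of 0.143 and 0.209 from edgeR, and the groups of Skil overlapped. Smad2, a receptor Smad of the TGF-β branch, had overlapping groups (log2 fold change -0.09, adjusted p = 0.663 from edgeR).

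Of 10 other genes described as BMP targets, 1 was lower and 2 were higher at an unadjusted p under 0.05. Msx1, a homeobox gene, had 26.2, 24.0 and 17.6 CPM in young and 11.6, 9.54 and 11.1 CPM in old (log2 fold change -1.07, standard error 0.18, adjusted p = 0.0600 from edgeR). Dlx3, another homeobox gene, was sparse, with at most 0.814 CPM in young and 1.85 to 2.24 CPM in old. Cdkn1a, the cell cycle inhibitor p21, is induced by many signals and had 228, 185 and 140.4 CPM in young and 239.9, 276 and 257 CPM in old (log2 fold change 0.48, adjusted p = 0.198 from edgeR).

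The partners that Id proteins bind were measured as well. The E protein genes Tcf12 and Tcf4 were higher, with Tcf12 at 42.7, 47.6 and 52.1 CPM in young and 65.1, 63.2 and 75.8 CPM in old (log2 fold change 0.52, adjusted p = 0.0948 from edgeR). Tcf4 had 39.6, 37.1 and 36.05 CPM in young and 44.4, 44.7 and 46.0 CPM in old, a log2 fold change of 0.26 (adjusted p = 0.145 from edgeR). Neither gene had overlapping groups, and DESeq2 gave adjusted p under 0.05 for both. The third E protein gene, Tcf3, had a log2 fold change of 0.15 (adjusted p = 0.516 from edgeR) with overlapping groups. Ets1, an Ets factor, was lower, at 97.5, 97.7 and 112 CPM in young and 58.3, 52.9 and 47.8 CPM in old. The fit gave -0.95 on the log2 scale for Ets1, with a standard error of 0.11 (adjusted p = 0.0531 from edgeR).

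**Figure D4:**
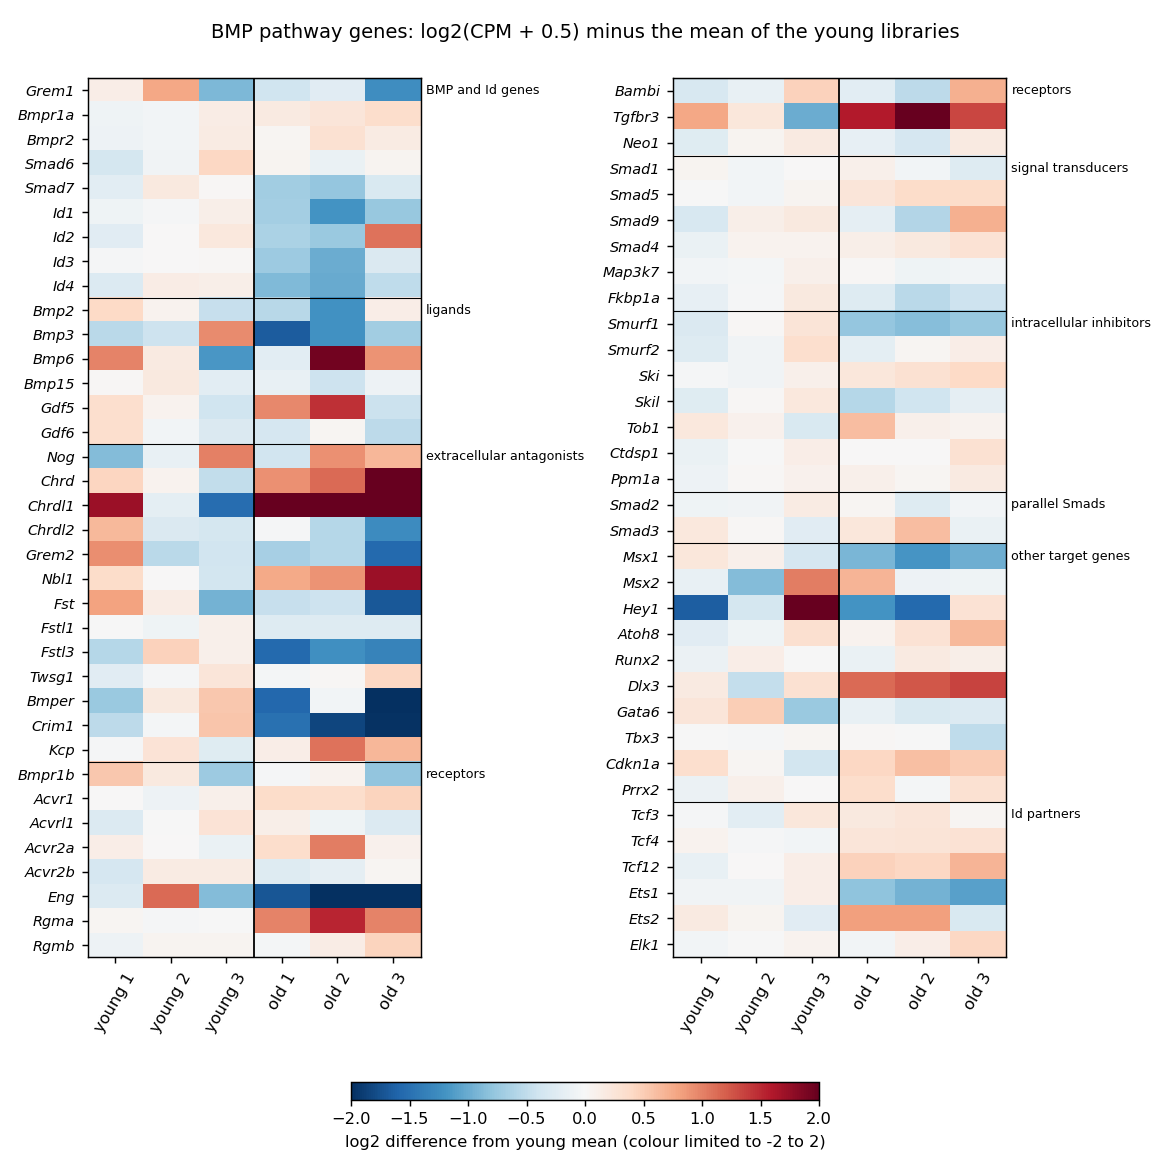
Difference of log2(CPM + 0.5) from the mean of the 3 young libraries (color, limited to -2 to 2) for the 9 genes and 61 other pathway genes (rows, grouped by role) in the 6 libraries (columns). Among others, Id1, Id3, Id4, Smad7, Smurf1, Msx1, Crim1 and Ets1 are negative in all 3 old columns, and Rgma, Nbl1, Chrd and Tgfbr3 are positive.

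The genes whose levels followed Id1, Id3 and Grem1 most closely over the 6 libraries were sought among 8568 genes with a symbol and a mean of at least 10 CPM. The measure was the root mean square difference between log2(CPM + 0.5) profiles, each centered on its own mean, and it includes the age difference itself. Closest to Id1 were Cd44, the hyaluronan receptor (0.07), Raph1 (0.09) and Cltb, a clathrin light chain (0.09). Cd44 had 398, 415 and 427 CPM in young and 268, 192 and 229 CPM in old. Its lowest library was also old replicate 2, which largely follows from choosing it by likeness to Id1. Closest to Id3 were Maml2, a Notch coactivator (0.08), Lrch1 (0.12) and Kifc3 (0.13). Grem1 had no neighbor as close, with Clec11a at 0.17, Tnip1 at 0.25 and Synpo at 0.26. The measure is not scaled by a gene's spread, and Grem1 varied more within both groups than Id1 and Id3. Its larger values therefore do not show a more singular pattern.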

How the data were processed

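RNA of cultured VSM cells from 3 young and 3 old rats was sequenced as stranded polyadenylated libraries. The authors trimmed reads with Cutadapt 3.5 through Trim Galore 0.6.7, aligned them to Rnor 6.0 with STAR 2.7.10b and counted genes with featureCounts (Subread 2.0.8). The deposited values are raw counts without normalization, named by Ensembl identifier although the methods name a RefSeq annotation. How strand, mates and multi-mapped reads were handled was not given in the sources used. Even numbers made up 68.7% to 71.1% of low counts (1 to 19) per library, and whether mates were counted separately was not tested, so halved counts were tried. Library totals were 44235674 to 59700887, above the reads per sample that the paper gives for these paired-end libraries.

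All 14475 genes were fitted in R 4.3.3 with edgeR 4.0.16 (TMM, quasi-likelihood test, young as reference, no covariates, Benjamini-Hochberg adjustment over all genes). Standard errors were derived from the F statistic of each gene. As alternatives, limma-voom (limma 3.58.1) and DESeq2 1.42.0, which left 292 genes without an adjusted p, were run, beside other scalings, filters, a replicate block, halved counts and each library left out. The steps were tested on simulated data. An exact permutation test of 3 against 3 libraries cannot give a two-sided p under 0.1 and was not used.

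The genes and lists were chosen with earlier results of these data known. All 9 genes were named, and of the other lists those with an unadjusted edgeR p under 0.05, the gene of each with the highest mean CPM over the 6 libraries (a choice not corrected for gene length), and the 3 genes nearest in pattern to Id1, Id3 and Grem1. Smad1, Bmp2, Tcf3 and the endothelial genes besides Tek were named outside this rule, after their values were seen. A ratio of Grem1 to Bmp4 and the pattern search for Bmp4 had been planned and could not be made, since Bmp4 was not analysed here. Coordinates of the count table's own build were not used, and no per-sample column was left unused.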

Additional observations from a re-analysis of the deposited data

How the results depend on the processing

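The count of DEGs among the 9 genes, 0 in edgeR, stayed at 0 under both other scalings, both filters, DESeq2, limma-voom, the replicate block and halved counts, and ranged from 0 to 1 with each library left out, the 1 being Id1 without old replicate 1. The number at an unadjusted p under 0.05 was 5 under every alternative besides the replicate block (6) and the left-out libraries (4 to 6). The number of other pathway genes at that level was 20, and 16 to 24 over all alternatives. For these counts the share of all genes was computed in the main edgeR fit only. The median log2 fold change of the 9 genes lay between -0.71 and -0.26 with each library left out. The number of genes with separate groups, 5, ranged from 5 to 7 with each library left out, an alternative chosen after seeing the data in which the count could only stay or grow.

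Id2 and Smad6 turned direction. Id2 had a log2 fold change of -0.10 in limma-voom, -0.11 with the replicate block and -0.71 without old replicate 3 (-0.72 in DESeq2), and between -0.71 and 0.46 with each library left out. Smad6 had 0.21 without young replicate 3 (0.20 in DESeq2) and 0.019 without old replicate 2 (0.018 in DESeq2), and between -0.21 and 0.21 with each library left out. The cause was not tested. DESeq2 called 4 of the 9 genes at an adjusted p under 0.05 and edgeR none, on log2 fold changes that differed by at most 0.01.

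The replicate numbers were not taken as pairs, since neither the labels nor the paper gives a pairing of young with old rats. Deviations of same-numbered libraries from their group means correlated across genes at 0.06, 0.31 and 0.29. For libraries with unlike numbers the correlations ran from -0.45 to 0.34. Whether same-numbered libraries share a batch was not tested. With the replicate block the 9 genes had 5 lower and 1 higher at an unadjusted p under 0.05, and 0 DEGs. The lower gene added by the block was Grem1. The share of all genes at that level was not computed with the block, so these counts cannot be set against it.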
